A study of Homo sapiens with 6 samples.

Results

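The Parkinson disease genes LRRK2, PINK1, PARK7, VPS35, ATP13A2, FBXO7 and DNAJC6, in which inherited changes cause or raise the risk of the disease, were examined in human neurons by chromatin immunoprecipitation followed by sequencing (ChIP-seq). The 7 genes were taken as a named list, and every listed peak that overlapped a gene's interval extended by 20 kb on each side was assigned to that gene. The 7 windows, among the windows of 20033 protein-coding genes, held 28 of the 78694 H3K27ac peaks and 21 of the 43677 CTCF peaks. All libraries came from neurons grown out of neural progenitors, and all shared 1 established line of human induced pluripotent stem cells (iPSC), KOLF2.1J, with no treatment or genotype contrast in the labels. Nothing in the labels says whether the replicates were separate cultures. The groups were 2 CTCF libraries, 2 H3K27ac libraries and 2 input libraries without antibody. The data examined were 1 peak list per antibody, each covering both replicates together. The spread between replicates and the read depth behind each value are therefore unknown, and no test between conditions was possible.

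H3K27ac is histone H3 acetylated at a lysine of its tail, a mark of nucleosomes that flank active promoters and enhancers. CTCF is a zinc finger protein that binds DNA and halts loop-extruding cohesin, so its sites often lie at loop anchors and domain borders. The proteins encoded by the genes studied act in 3 connected systems. PINK1 is a kinase that marks damaged mitochondria for removal, and PARK7 encodes DJ-1, a protein that protects cells from oxidative stress. LRRK2 is a kinase that phosphorylates Rab GTPases on membranes, VPS35 is the core subunit of the retromer that recycles cargo from endosomes, ATP13A2 is a polyamine-transporting ATPase of the lysosome, and DNAJC6 encodes auxilin, a co-chaperone that helps to strip clathrin from vesicles at the synapse. FBXO7 is the substrate-binding subunit of an SCF ubiquitin ligase and also takes part in mitophagy.

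Promoter sequences from RefSeq (GRCh38.p14) were available for 6 of the 7 genes, and FBXO7 and DNAJC6 had a pair of listed starts each. Each sequence runs 5′ to 3′ on the gene's strand for 300 bases, from 250 bases before the start to 50 bases after it. Capitals mark GC boxes, the hexamer GGGCGG on either strand, which occurred in 56.3% of the 22198 promoters of protein-coding genes. VPS35 and LRRK2 are shown because, by the highest H3K27ac peak at a start of each gene, they were the strongest and the weakest of the 7. PARK7 and FBXO7 are shown because a CTCF peak reached into their promoters. The DNAJC6 pair is shown because acetylation differed between its starts. The intervals are chr12:40224747-40225046 on the plus strand for LRRK2, chr16:46689129-46689428 on the minus strand for VPS35, chr1:7961461-7961760 on the plus strand for PARK7 and chr22:32474561-32474860 on the plus strand for FBXO7. For DNAJC6 they are chr1:65264499-65264798 (start 1) and chr1:65309293-65309592 (start 2), on the plus strand.
LRRK2: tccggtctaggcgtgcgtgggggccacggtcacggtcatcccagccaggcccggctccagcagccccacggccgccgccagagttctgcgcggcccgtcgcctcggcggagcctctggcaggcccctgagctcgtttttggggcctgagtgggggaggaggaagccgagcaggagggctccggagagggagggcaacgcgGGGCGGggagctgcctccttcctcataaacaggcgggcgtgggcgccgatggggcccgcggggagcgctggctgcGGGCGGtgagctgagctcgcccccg
VPS35: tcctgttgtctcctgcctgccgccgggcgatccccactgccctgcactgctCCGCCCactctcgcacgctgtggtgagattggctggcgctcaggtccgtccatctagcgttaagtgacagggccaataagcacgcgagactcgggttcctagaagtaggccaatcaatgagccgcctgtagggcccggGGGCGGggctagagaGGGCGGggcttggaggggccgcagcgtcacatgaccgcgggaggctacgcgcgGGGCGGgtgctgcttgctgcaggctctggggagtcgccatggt
PARK7: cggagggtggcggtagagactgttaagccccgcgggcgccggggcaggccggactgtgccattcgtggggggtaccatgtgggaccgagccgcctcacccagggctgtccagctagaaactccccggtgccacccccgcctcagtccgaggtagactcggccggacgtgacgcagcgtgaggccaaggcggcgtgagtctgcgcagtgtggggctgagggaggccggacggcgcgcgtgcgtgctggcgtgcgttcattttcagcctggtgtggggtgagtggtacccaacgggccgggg
FBXO7: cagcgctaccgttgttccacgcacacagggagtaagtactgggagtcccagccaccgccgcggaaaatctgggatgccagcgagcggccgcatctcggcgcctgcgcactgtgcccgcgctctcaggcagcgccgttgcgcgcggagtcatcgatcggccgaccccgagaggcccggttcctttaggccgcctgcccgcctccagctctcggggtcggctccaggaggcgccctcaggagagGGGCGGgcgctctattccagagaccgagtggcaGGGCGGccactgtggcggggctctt
DNAJC6 start 1: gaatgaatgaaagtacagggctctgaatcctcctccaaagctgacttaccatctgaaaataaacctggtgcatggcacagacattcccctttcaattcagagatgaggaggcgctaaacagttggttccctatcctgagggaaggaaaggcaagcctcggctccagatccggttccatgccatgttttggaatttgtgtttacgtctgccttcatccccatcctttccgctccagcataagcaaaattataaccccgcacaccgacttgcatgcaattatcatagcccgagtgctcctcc
DNAJC6 start 2: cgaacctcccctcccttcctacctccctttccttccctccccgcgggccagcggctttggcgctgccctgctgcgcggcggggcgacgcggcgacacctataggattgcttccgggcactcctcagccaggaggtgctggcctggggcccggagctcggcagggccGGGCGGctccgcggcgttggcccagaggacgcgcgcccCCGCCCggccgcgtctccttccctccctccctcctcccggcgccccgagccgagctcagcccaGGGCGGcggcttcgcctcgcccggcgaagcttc

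These promoters differed in base composition. The DNAJC6 start 1 sequence had a GC content of 48.7% and 8 CG dinucleotides, whereas the start 2 sequence had 76.0% and 37. The other promoters of the listed genes, ATP13A2 and the second start of FBXO7 included, ranged from 67.0% to 75.0% GC with 25 to 35 CG dinucleotides. Among all promoters in the table, the median was 62.3% GC and 21 CG dinucleotides. An H3K27ac peak lay within 1 kb of 63.6% of all those starts, of 25.2% of the 7031 starts with at most 10 CG dinucleotides and of 86.0% of the 9184 starts with at least 25. VPS35 held 4 GC boxes and 3 CCAAT boxes (CCAAT on either strand, found in 34.7% of promoters), and PARK7 held neither. The CTCF core was searched on either strand in 4 spellings. The first was AGGGGGC, the second was AGATGGC, the third was AGGTGGC and the fourth was AGAGGGC. At least 1 of them was found in 34.5% of promoters. It occurred once each in VPS35 and ATP13A2, and its absence from the other windows says only that these letters are not there. The CTCF peak intervals covered 290 of the 300 bases printed for FBXO7 and 193 of those printed for PARK7. They covered 0 bases of the VPS35 and ATP13A2 windows, where the core was found. H3K27ac intervals covered 300 bases of VPS35, FBXO7 and DNAJC6 start 2, but 94 bases of PARK7, 56 of LRRK2 and none of DNAJC6 start 1.

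Peaks of both kinds were found in all 7 windows, but the genes differed widely in how strong those peaks were. Among all protein-coding genes, 81.1% had an H3K27ac peak in such a window and 82.7% had a CTCF peak, so presence alone was common. H3K27ac values were read as fold enrichments from the values and layout as deposited. CTCF values are the authors' peak signal on an unstated scale, and values of each kind were compared only within their own list. Fold enrichments in the 7 windows ran from 2.49 to 45.1 with a median of 4.64, close to the median of 4.74 of the whole list. CTCF signal values ran from 27.8 to 353 with a median of 146, against 91.0 in the whole list. Of the H3K27ac peaks, 2 had a q-value above 0.05 (one each near VPS35 and FBXO7). The CTCF peaks included 4 with the recurrent width of 800 bp, and these had signal values from 27.8 to 53.2.

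**Figure D1:**
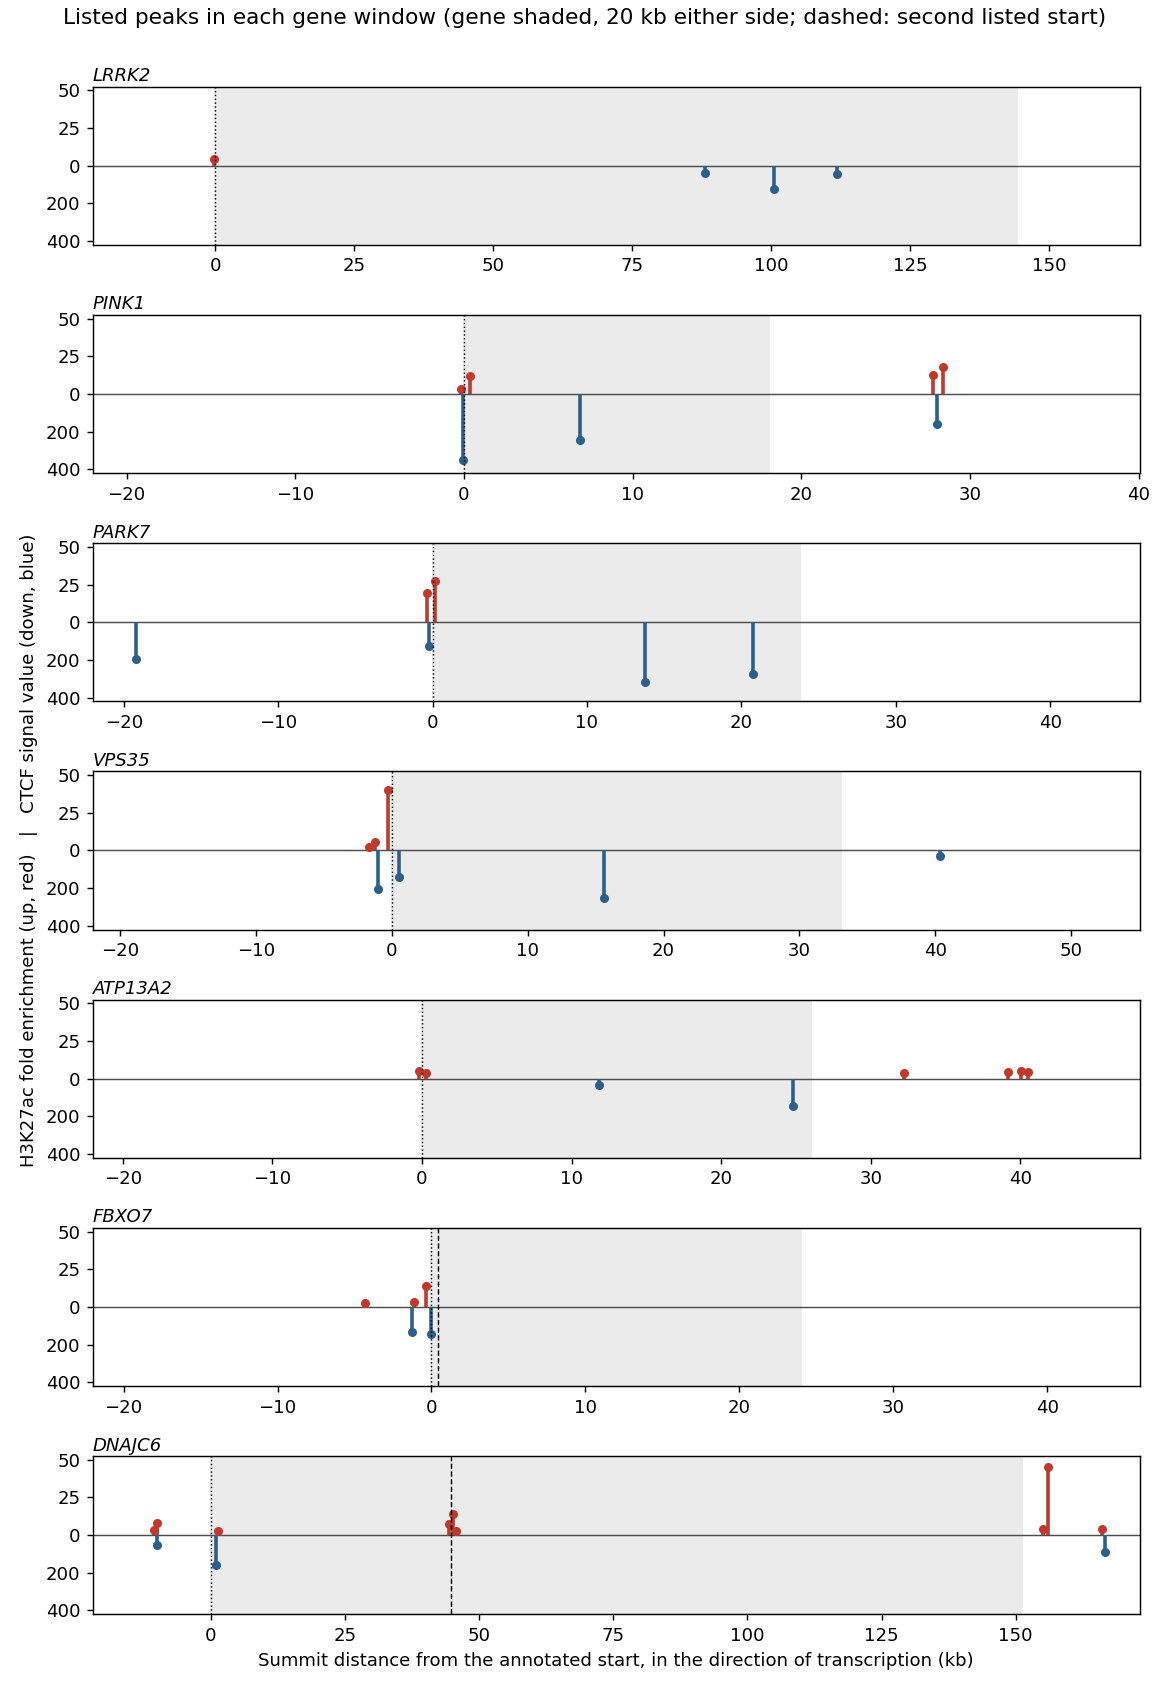
Peaks in the window of each gene, with the summit's distance from the annotated start on the horizontal axis (kb, in the direction of transcription) and the H3K27ac fold enrichment upward in red or the CTCF signal value downward in blue; each line is 1 listed peak, the gene is shaded, and the dotted and dashed lines mark the first and second listed start. LRRK2 has 1 short red line at its start and blue lines only deep in the gene, whereas VPS35 has the highest red line at a start (40.4) and PINK1 the highest blue line (353).

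Acetylation at the start of the gene differed between the members. An H3K27ac peak lay within 1 kb of the annotated 5′ end of 6 of the 7 genes, where 60.6% of all protein-coding genes had such a peak. For the 4192 protein-coding genes without a listed strand, here and below, either end of the interval counted. DNAJC6 was the exception at its 5′ end but had peaks at its second start, so with any listed start the number was 7 of 7, against 63.8% of all genes. The share was 86.0% among promoters with at least 25 CG dinucleotides. All listed promoters of these genes except DNAJC6 start 1 were of that kind, and none was listed for PINK1. In order of the highest fold enrichment at a listed start, the genes were VPS35 (40.4), PARK7 (27.4), DNAJC6 (14.1), FBXO7 (14.1), PINK1 (12.2), ATP13A2 (4.87) and LRRK2 (4.37). Without replicate values, neighbours in this order cannot be separated, and the values of DNAJC6 and FBXO7 were equal to 3 digits. Of the genes that had a peak at a listed start, 90.2% had a lower highest value than VPS35 and 76.6% a lower one than PARK7. The corresponding shares were 45.0% for FBXO7 and 45.0% for DNAJC6, 37.9% for PINK1, 8.40% for ATP13A2 and 6.30% for LRRK2. The ATP13A2 and LRRK2 values thus lay near the bottom of the range of acetylated starts.

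CTCF was also present at several of these starts. A CTCF peak reached within 1 kb of the 5′ end in 5 of the 7 genes (PINK1, PARK7, VPS35, FBXO7 and DNAJC6), where 33.0% of all protein-coding genes had one. The number was again 5 when any listed start counted, against 36.3% of all genes. By signal value at the start they were ordered PINK1 (353), VPS35 (207), DNAJC6 (157), FBXO7 (146) and PARK7 (124). The order depends on counting peak edges. The summits of the VPS35 and DNAJC6 peaks lay 1014 and 1025 bp from the start, and the VPS35 peak overlapped ORC6. With the summit required within 1 kb, the VPS35 value was 139, below FBXO7, and DNAJC6 had no peak. Among genes with a CTCF peak at a listed start, 98.4% had a lower value than PINK1 and 61.5% a lower one than PARK7. All 5 had a peak from the stronger 50% of the CTCF list there, which 15.7% of all genes had. CTCF and H3K27ac were both present at the 5′ end of 4 genes (PINK1, PARK7, VPS35 and FBXO7), compared with 28.0% of all protein-coding genes. LRRK2 and ATP13A2, whose highest acetylation at a start was the lowest of the group, were the members without CTCF within 1 kb of any start. With 7 genes chosen by name, these counts describe the genes and were not tested.

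**Figure D2:**
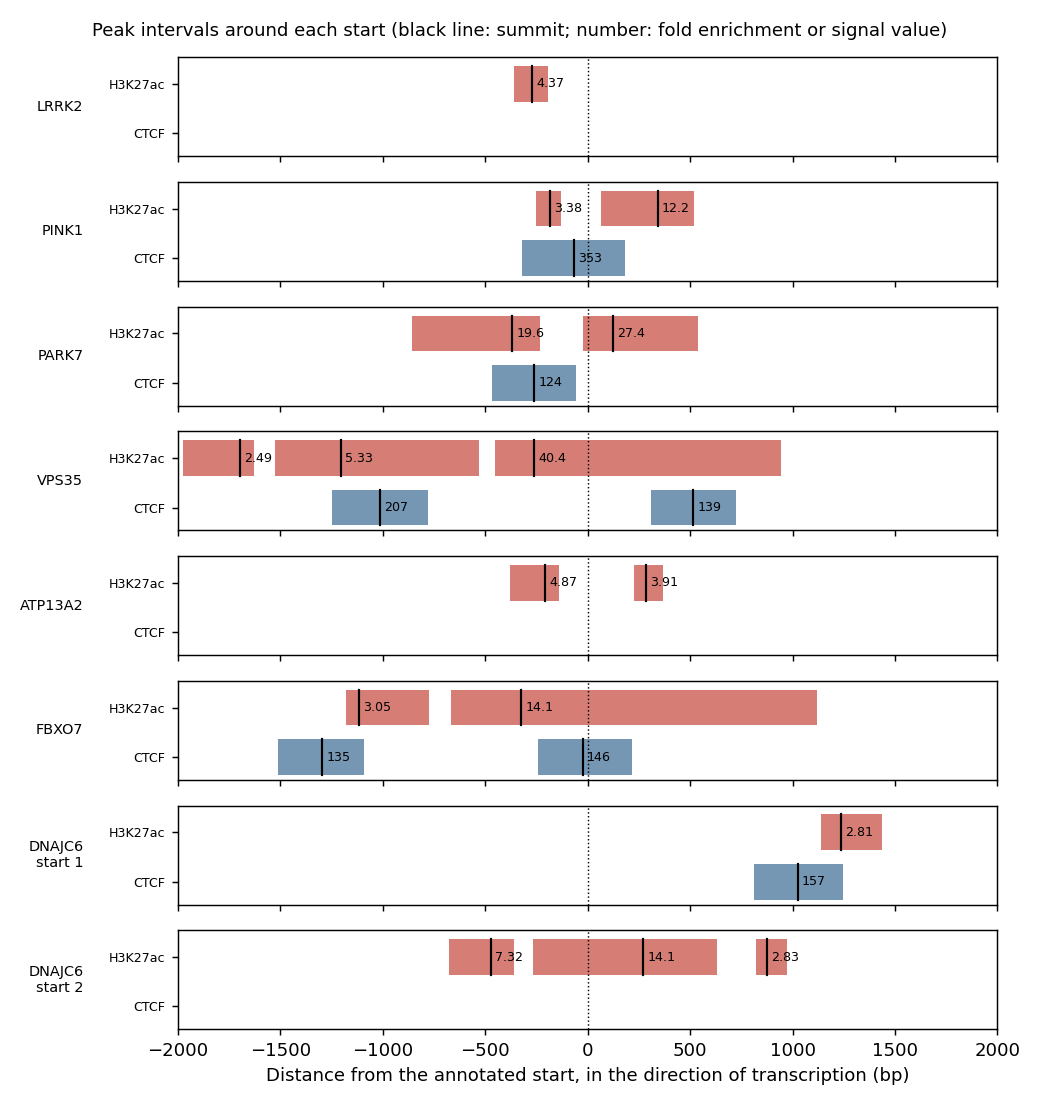
Intervals of H3K27ac peaks (red) and CTCF peaks (blue) within 2 kb of each start, by distance in bp in the direction of transcription; black lines are summits and numbers are the fold enrichment or signal value. The CTCF interval of PINK1 lies across a break between its H3K27ac intervals, and DNAJC6 has a CTCF peak of 157 near start 1 and an H3K27ac peak of 14.1 over start 2.

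PINK1, the mitochondrial kinase, lies on chromosome 1 from 20633458 to 20651511 and had the strongest CTCF peak of the group at its start. The orientation of PINK1 is not in the promoter table, and both ends of its interval were searched. Peaks within 1 kb were found at the lower-coordinate end, which is the 5′ end of this gene. The CTCF peak (20633138 to 20633638) reached a signal value of 353, above 99.0% of the CTCF list, and its summit lay 68 bp before the start. H3K27ac was split around it. Upstream of the CTCF summit the fold enrichment was 3.38 (20633207 to 20633328). Downstream it was 12.2 (20633521 to 20633979), in a peak that overlapped MIR6084. The unlisted stretch between them was 192 bp long and contained the CTCF summit. A further CTCF peak inside the gene, 6.86 kb from the start (20640077 to 20640544), had a signal value of 242 and no H3K27ac.

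The remaining peaks of the PINK1 window lay where DDOST, a subunit of the oligosaccharyltransferase, and KIF17, a kinesin motor, adjoin. Their facing ends carried H3K27ac peaks with fold enrichments of 12.5 (20660694 to 20661399, overlapping DDOST) and 17.9 (20661658 to 20662259, overlapping KIF17). The second of these was the strongest H3K27ac peak of the window. Within 1 kb of both peaks lay a listed start of DDOST but none of KIF17, so neither peak is placed at a KIF17 start. A CTCF peak with a signal value of 162 (20661290 to 20661725) lay across the 258 bp between them, and its summit fell in that stretch. The window thus held the same arrangement at each of its acetylated sites, a CTCF summit in a short break between a pair of H3K27ac peaks. All 4 H3K27ac peaks of this window overlapped a CTCF peak.

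PARK7, which encodes DJ-1, lies on chromosome 1 from 7961711 to 7985505 and had the second highest acetylation at a start. Its H3K27ac was also listed as a pair, with fold enrichments of 19.6 (7960852 to 7961480) and 27.4 (7961687 to 7962250). These values exceeded 92.5% and 96.0% of the H3K27ac list. A CTCF peak of signal value 124 (7961242 to 7961653) reached from the upstream member of the pair into the 206 bp break. Its summit lay 260 bp before the start, within the upstream acetylated interval and not in the break. Stronger CTCF peaks lay inside the gene without H3K27ac. The peak 13.7 kb from the start (7975202 to 7975704) had a signal value of 317, above 97.0% of its list, and the next, 20.8 kb from the start, had 276. A CTCF peak of 197 lay 19.2 kb before the start. Genes of similar length (within 20%) had as many CTCF peaks or more in 22.5% of 2124 cases, where PARK7 had 4.

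VPS35, the retromer subunit, lies on chromosome 16 from 46656132 to 46689178 on the minus strand and carried the strongest acetylation at a start. The peak from 46688232 to 46689631 was 1400 bp wide, covered the start, and had a fold enrichment of 40.4, above 98.5% of the H3K27ac list. The start of ORC6, a subunit of the origin recognition complex transcribed in the opposite direction, lies within 1 kb of the same peak, so the signal cannot be assigned to VPS35 alone. On the ORC6 side, 75 bp further on, followed a peak with a fold enrichment of 5.33 (46689707 to 46690706) and a weak peak of 2.49. CTCF lay on both sides of the VPS35 start. The peak 515 bp inside the gene (46688456 to 46688868) had a signal value of 139, and the peak 1014 bp before the start (46689958 to 46690428), which overlapped ORC6, had 207. Both overlapped H3K27ac. The strongest CTCF peak of the window, 252 at 15.6 kb inside VPS35 (46673342 to 46673813), did not overlap H3K27ac, and neither did the weakest, 27.8 beyond the end of the gene.

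FBXO7, the F-box protein, lies on chromosome 22 from 32474811 to 32498829, and all of its peaks were gathered around and before the start. A single H3K27ac peak 1787 bp wide (32474146 to 32475932) spanned both listed starts with a fold enrichment of 14.1. The CTCF peak from 32474571 to 32475026 lay wholly inside it, with a signal value of 146 and its summit 24 bp before the first start. An additional CTCF peak of 135 (32473299 to 32473720) overlapped a weak H3K27ac peak of 3.05 further upstream. The remaining H3K27ac peak, 4.33 kb before the start, had a fold enrichment of 2.76. No peak of either list was found from the acetylated start to the end of the gene, and the next CTCF peak in that direction, with a signal value of 294, lay 54.3 kb from the start.

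DNAJC6, the auxilin gene, lies on chromosome 1 from 65264749 to 65415871 and carried different marks at its listed starts. At the 5′ end, CTCF was listed and strong acetylation was not. The CTCF peak there (65265560 to 65265995) reached 157 with its summit 1025 bp inside the gene. The only H3K27ac peak nearby (65265889 to 65266186) had a fold enrichment of 2.81, above 7.72% of its list. At the second start, 44.8 kb further into the gene, 3 H3K27ac peaks had fold enrichments of 7.32, 14.1 and 2.83. The strongest ran from 65309278 to 65310174 and covered the start. The pair of stronger peaks there also overlapped DNAJC6-AS1, an antisense RNA whose listed start is within 1 kb. The nearest CTCF summits lay 43.8 kb before and 122 kb beyond the second start. As printed above, the start that carried the acetylation is the one with the higher CG content.

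The highest H3K27ac value in the DNAJC6 window was at another gene. It belonged to a peak at the shared start region of LEPR, the leptin receptor, and LEPROT (65420596 to 65421871), with a fold enrichment of 45.1, above 99.0% of the list. It was preceded by a peak of 4.27 and followed, inside both of those genes, by a peak of 4.24. Upstream of DNAJC6, about 10 kb from its 5′ end, a CTCF peak of the recurrent width (signal value 53.2) overlapped H3K27ac peaks with fold enrichments of 3.38 and 8.35. The distance from the 5′ end was 10.1 kb for that CTCF summit. DNAJC6 had the most H3K27ac peaks of the group, 9, and 30.6% of the 1108 genes of similar length had as many or more.

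LRRK2, the Rab kinase, lies on chromosome 12 from 40224997 to 40369285 and had the least H3K27ac of the group. Its window held 1 peak, 166 bp wide (40224637 to 40224802), with a fold enrichment of 4.37 and a summit 270 bp before the start. The interval overlapped the noncoding gene LINC01779, and an end of LRRK2-DT, named as a divergent transcript, also lies within 1 kb, so this peak cannot be assigned to LRRK2 alone. Among the 1149 protein-coding genes of similar length, 94.0% had as many H3K27ac peaks or more in their window, and the median was 5. No CTCF peak was near the start: the nearest summits lay 72.0 kb before it, outside the window, and 88.2 kb inside the gene. The latter was the lowest-coordinate member of 3 CTCF peaks between 88.2 and 112 kb from the start, with signal values of 40.5, 122 and 45.2. The middle peak, from 40325357 to 40325742, ranked above 60.4% of the list, and none of the 3 overlapped H3K27ac.

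ATP13A2, the lysosomal ATPase, lies on chromosome 1 from 16985958 to 17011928 on the minus strand, and its H3K27ac peaks were numerous but weak. Peaks with fold enrichments of 4.87 (17012066 to 17012307) and 3.91 (17011561 to 17011703) lay on either side of the start, 362 bp apart, with no CTCF peak between them or within 1 kb. The other 4 H3K27ac peaks were at CROCC and MFAP2 beyond the 3′ end, with fold enrichments from 3.96 to 5.14. The highest of them (16971677 to 16972352) overlapped CROCC, a ciliary rootlet gene with near-identical copies in the same chromosome region, so reads there may not be uniquely placed. The highest rank in this window was above 55.3% of the list. ATP13A2 had 6 H3K27ac peaks, and 23.1% of the 2179 genes of similar length had as many or more. The CTCF peaks were both inside the gene, 11.9 kb and 24.8 kb from the start, with signal values of 32.6 and 146. The nearest CTCF peak before the start was 34.3 kb away (signal value 152).

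**Figure D3:**
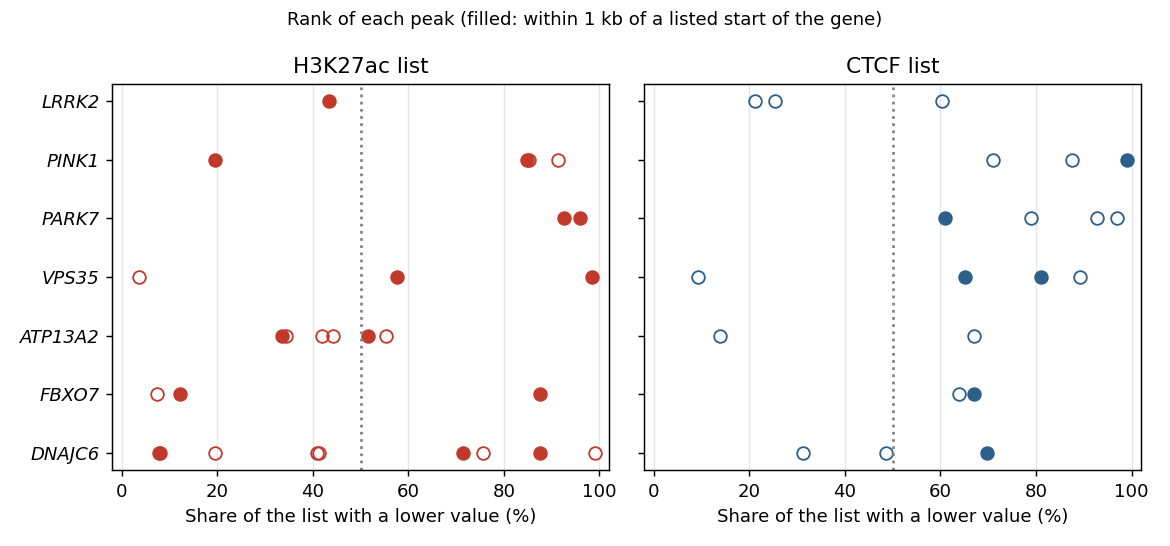
Share of the whole list with a lower value, in percent, for every H3K27ac peak (left) and CTCF peak (right) of each gene; filled points lie within 1 kb of a listed start of the gene, open points elsewhere, and the dotted line marks 50%. All filled CTCF points lie above 50%, while filled H3K27ac points spread from 8.12% to 98.5%.

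No H3K27ac peak was listed within the gene bodies, which is the common state for genes of most of these lengths. None of the 7 genes had an H3K27ac peak inside its interval and more than 2.5 kb from a listed start, and 31.2% of all protein-coding genes had one. The share depends on length. It was 70.1% among genes of similar length to LRRK2 and 71.5% among those of similar length to DNAJC6, the longest members at 144 and 151 kb. For the 5 shorter genes the shares lay between 19.4% and 30.0%, so most genes of their lengths also lacked such a peak. CTCF was present in the bodies of 5 genes by the same measure (LRRK2, PINK1, PARK7, VPS35 and ATP13A2), where 37.8% of all genes had it. FBXO7 and DNAJC6 had none, and 79.3% of genes of similar length to DNAJC6 had at least 1.

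CTCF peaks at the starts of the listed genes overlapped H3K27ac, as most CTCF peaks at starts did. All 6 within 1 kb of a listed start did so, against 77.7% of the 8682 CTCF peaks at the starts of protein-coding genes. The 9 CTCF peaks inside the genes and over 1 kb from listed starts overlapped no H3K27ac peak. By that 1 kb limit the only H3K27ac peak inside a gene was the one of 2.81 in DNAJC6. DNAJC6 held none of the 9 CTCF peaks, so they had no acetylated peak to overlap. For CTCF peaks inside any protein-coding gene and over 1 kb from listed starts, the share that overlapped H3K27ac was 17.2%. Over the windows, 9 of 21 CTCF peaks (42.9%) overlapped H3K27ac by at least 1 bp, compared with 28.1% of the whole CTCF list and 32.6% of the CTCF peaks in the window of any protein-coding gene. The number fell to 5 when the CTCF summit itself had to lie inside an H3K27ac peak. The share of the whole CTCF list under that rule was not computed, so the 5 cannot be set beside it. Summits of H3K27ac peaks on both sides of a listed start, each within 1 kb, were found in 4 genes (PINK1, PARK7, ATP13A2 and DNAJC6), against 31.3% of all protein-coding genes. This pattern was chosen for description after the peaks had been seen.

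The genes that work with the listed genes were examined in 7 lists of 112 genes, by the highest H3K27ac peak within 1 kb of any listed start, as for the 7 genes themselves. A peak was listed for 108 of them (96.4%), against 63.8% of all protein-coding genes. At the annotated 5′ end alone the number was 104 (92.9%), against 60.6%. The lists were chosen with earlier results of these data known, and counting any listed start was chosen after seeing the data. These contrasts are therefore descriptions and were not tested. No strand was listed for 9 of the 112 genes, so either end counted for them, here and in the single lists. The median of the highest fold enrichment at any listed start was 17.6, against 15.6 over all genes with a peak. The median of all genes exceeds the values of 5 of the 7 listed genes. All 20 clathrin genes were acetylated, CLTC, the clathrin heavy chain, most of all (76.5), and GAK, the widely expressed relative of DNAJC6, had 19.8. All 16 retromer and WASH genes were acetylated, with SNX5, a sorting nexin, highest at 58.1. Within that list, VPS26A (15.9), VPS26B (14.1) and VPS29 (11.0), the partners of VPS35 in the retromer core, had lower values than VPS35. The VPS35 peak also lies at the start of ORC6, so its value cannot be assigned to VPS35 alone. WASHC2A and WASHC2C are near-identical copies and their values are uncertain.

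In the mitophagy and import list, 20 of 21 genes had a peak at the 5′ end, and TOMM70, an import receptor of the outer mitochondrial membrane, was highest there (33.0). With any listed start, VDAC1 was highest (33.4). USP30, a mitochondrial deubiquitinase, was the exception but had a peak of 17.7 at another listed start. In the oxidative stress list, 13 of 14 genes had a peak at the 5′ end, with PRDX3, the mitochondrial peroxiredoxin, highest there (45.1). With any listed start, SOD2 was highest in that list (70.5). TXNRD1, a thioredoxin reductase, had its peak at another listed start (40.4). Among 12 ligase and proteasome genes, 11 had a peak at the 5′ end, and the median at any listed start was 33.5, the highest of the 7 lists. CAND1, which exchanges the substrate receptors of cullin ligases, led with 64.5. PSMF1, a proteasome regulator that binds FBXO7, had a peak of 6.40 at another listed start. DNAJC6 was thus not alone in having its acetylation away from the 5′ end.

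In the LRRK2 list, 12 of 14 genes had a peak, and RAB35 was highest (26.8). The exceptions were LRRK1, the paralog of LRRK2, and RAB29, a Rab protein linked to its recruitment, which had no peak at any listed start. The lysosome list had 12 of 15 at the 5′ end, with ATP6V1A, a proton pump subunit, highest (51.8). TFEB, a regulator of lysosomal genes, had a peak of 3.51 at another listed start. ATP13A3 and ATP13A5, relatives of ATP13A2, had none at any listed start.

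**Figure D4:**
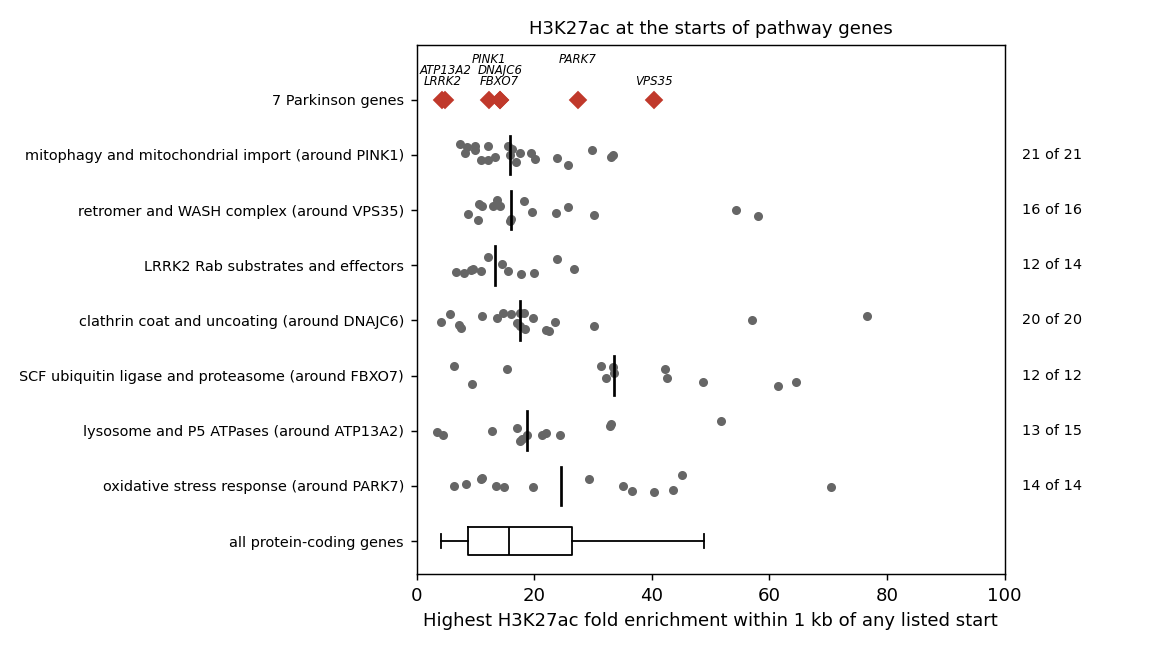
Highest H3K27ac fold enrichment within 1 kb of any listed start for the 7 Parkinson disease genes (red), for the pathway genes that had a peak (grey points, black line at the median, with the number that had a peak at the right) and for all protein-coding genes with a peak (box from the 25th to the 75th percentile, line at the median, whiskers at the 5th and 95th). LRRK2 (4.37) and ATP13A2 (4.87) lie at the low end of the range of the pathway genes, and VPS35 (40.4) lies above the median of each list.

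The label of the cells was compared with marker genes by the same measure. Peaks within 1 kb of any listed start were found for 11 of 12 neuron markers, for 8 of 8 neural progenitor markers and for 6 of 7 astrocyte markers. The share of all protein-coding genes by this measure was 63.8%, for these and the marker groups below. At the annotated 5′ end, or at either end for genes without a listed strand, the numbers were 10, 6 and 4, against 60.6% of all genes. No strand was listed for 4 of the neuron, 1 of the progenitor and 3 of the astrocyte markers, so their peaks may lie at the 3′ end. Progenitor markers had the higher values, with a median of 35.4 at any listed start against 17.9 for the neuron markers and 14.9 for the astrocyte markers. The highest values were 50.3 for MSI1, 35.9 for MAP2 and 30.4 for GJA1. Of the midbrain dopaminergic markers, the class of neuron lost in Parkinson disease, 5 of 12 had a peak (LMX1B, NR4A2, EN1, KCNJ6 and, away from the 5′ end, DDC), at most 11.5. No strand was listed for NR4A2, which had that highest value, or for EN1, so their peaks may also lie at the 3′ end. TH and SLC6A3, the tyrosine hydroxylase and the dopamine transporter that define that class, had none. Microglia markers, cells in which LRRK2 is known to be expressed, had 1 of 9 (CSF1R, 3.42), and pluripotency markers had 2 of 6 (LIN28A, 4.32, and DPPA4, 7.63). The strand of LIN28A was not listed either. In a bulk list, fewer cells with a mark and less of it per cell cannot be told apart, and the part of progenitors in the values of the 7 genes was not tested.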

How the data were processed

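CTCF, H3K27ac and input libraries (2 each) were made by the submitters from formaldehyde-fixed, sonicated chromatin, per the labels' protocols. The submitters' processing notes name build hg38 and cutadapt 1.16, while the aligner, peak caller and thresholds are not given in the sources used here. The authors deposited 1 list per antibody for both replicates. Its CTCF column was read as a signal value and its H3K27ac column as a fold enrichment ratio, from the values and layout as deposited. The deposited −log10 q values of CTCF are capped at 4.78, so signal was used for ranks. The lists hold 0 columns of single samples, and input values were not analysed here.

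Positions were converted to 1-based. Gene intervals came from the GRCh38.p14 RefSeq table. Of its 20033 protein-coding genes on the listed chromosomes, 15841 had a strand from the RefSeq promoter table. The start was the 5′ end of the interval, or either end where no strand was given. Overlap meant at least 1 shared base, similar length meant within 20%, and a percentile is the share of the list with a lower value. All 166 list genes were found, 1 by an older symbol. Coordinates and values are printed for the strongest peak of each list in a window, peaks at starts and the nearest CTCF peaks, and in pathway lists for the highest gene and those without a peak; VPS26A, VPS26B, VPS29, GAK, MAP2, GJA1 and the dopaminergic markers with a peak were named after their values were seen. Members and lists were chosen with earlier results of these data known. Overlap code (Python 3.11.15, pandas 2.3.3, numpy 2.4.6) was tested on simulated intervals.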

Additional observations from a re-analysis of the deposited data

How the results depend on the processing

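No paired analysis was possible because the peaks of each antibody were listed once for its pair of libraries, without a value per library, and leaving out a replicate was not run for the same reason. Of 28 alternatives, 21 left the count within 1.5 times its value and 7 moved it further. The 28 H3K27ac peaks became 9 in the gene intervals alone, 44 with 50 kb either side and 14 in the strongest 50% of the list. The 21 CTCF peaks became 13 in the gene intervals alone and 39 with 50 kb either side. These moves follow from the size of the window or the list. The 9 CTCF peaks that overlapped H3K27ac became 5 when the summit of CTCF had to fall in the acetylated interval and 5 with windows of 100 bp either side of both summits. The number of members acetylated at the start (6) was 5 in the strongest 50% of the list, where LRRK2 dropped out, and 7 with 2.5 kb either side, where DNAJC6 came in. The number with CTCF at the start (5) was 4 with 500 bp either side or with the summit required within 1 kb, DNAJC6 being lost both times. The 104 acetylated pathway genes numbered 106 within 2.5 kb, 108 with any listed start and 101 in the strongest 50%. Counting any listed start was chosen after seeing the data. Depth is unknown, so a missing peak says only that none was listed.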
